A study of Danio rerio with 15 samples.

Results

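The innate immune cells of the zebrafish embryo belong to the myeloid lineage, and 10 genes used as its markers or regulators were followed in embryos depleted of Esco2. They are *cebpa*, *cebpb*, *cebp1* and *spi1b*, which encode transcription factors, *mpx* and *lyz*, which encode enzymes of granules, *lcp1* and *coro1a*, which encode actin-binding proteins of white blood cells, and *mmp9* and *mmp13a*, which encode secreted matrix proteases. The members were named with earlier results of these arrays known, and a probe set was taken where the array's annotation gives it a member as its only gene symbol. All 10 genes have such a probe set, and together they hold 16 of the 15502 probe sets tested, which name 8793 genes. The rule itself uses no measured value.

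Myeloid cells of the zebrafish arise in successive waves, first from anterior mesoderm and later from precursors in the posterior blood island and the aorta. Spi1b, also called Pu.1, drives precursors toward the myeloid fate. C/EBP factors act on the genes of granulocytes and, in other tissues such as liver, on genes of metabolism, so that *cebpa* and *cebpb* are not confined to blood cells. Neutrophils carry the peroxidase Mpx in their granules, lysozyme marks both neutrophils and macrophages of the embryo, and L-plastin, the product of *lcp1*, and coronin 1A mark leukocytes in general. Mmp9 and Mmp13a cut extracellular matrix and are made by leukocytes and also by epithelial and mesenchymal cells, for example at wounds.

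RNA of whole dechorionated wild type embryos was measured on 15 Affymetrix zebrafish arrays, with 1 pool of 50 embryos on each. *esco2* morphants at 48 hours post-fertilization (hpf; 4 arrays) and controls at 48 hpf (3 arrays, numbered 1, 3 and 4) formed the later pair, and *esco2* morphants and controls at 24 hpf (4 arrays each) the earlier one. Morphants had been injected at the start of cleavage with esco2_ATG, an antisense morpholino oligonucleotide that blocks translation of *esco2*, and controls with buffer only, so that all groups share the injection and none received an unrelated morpholino. The values are log2 values after robust multi-array averaging (RMA), and a difference of 1 between groups is 2-fold. Differences are morphant minus control, or 48 minus 24 hpf, from 1 limma fit to all arrays, and a probe set was called at a Benjamini-Hochberg adjusted p of at most 0.05 over all 15502 probe sets. The brightest probe set stands for a gene with several.

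A translation-blocking morpholino need not lower its transcript, so the arrays cannot check the depletion. The *esco2* transcript had log2 values of 8.28 to 8.68 in morphants and 8.01 to 8.23 in controls at 48 hpf, and of 8.71 to 8.97 in morphants and 9.10 to 9.19 in controls at 24 hpf. One array, control replicate 3 at 48 hpf, was unlike the rest. Its correlation with the arrays of its group averaged 0.985, against 0.989 to 0.998 for the others, and its median over 17 Affymetrix Tag control probe sets, which have no zebrafish target, was 4.63, against 3.78 to 4.33. Where a count or call at 48 hpf changes without this array, both are given. In RNA of whole embryos, fewer cells of a type and less RNA per cell cannot be told apart.

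At 48 hpf 7 of the 10 genes were called between *esco2* morphants and controls, 2 raised and 5 lowered, where 22.6% of all probe sets were called. Without control replicate 3 the count was 6. With array weights, whose estimation stopped before it converged, the count was 3 (*lyz*, *lcp1* and *mmp9*). The 22.6% is from the unweighted fit to all arrays, and the shares of all probe sets under these other settings are not given here. The genes *mmp9* and *cebp1* were raised, and *mmp13a*, *lcp1*, *lyz*, *coro1a* and *cebpa* were lowered, by 0.92 upward at most and by 0.77 downward at most on the log2 scale. At 24 hpf 2 genes were called, *cebp1* as raised and *lyz* as lowered, where 9.77% of all probe sets were called. No gene differed by 2-fold or more at either time. The median difference over the 10 genes was -0.20 at 48 hpf and 0.03 at 24 hpf, while over all probe sets it was 0.0073 and -0.0004. The plot of every pool shows the values behind these counts.

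**Figure D1:**
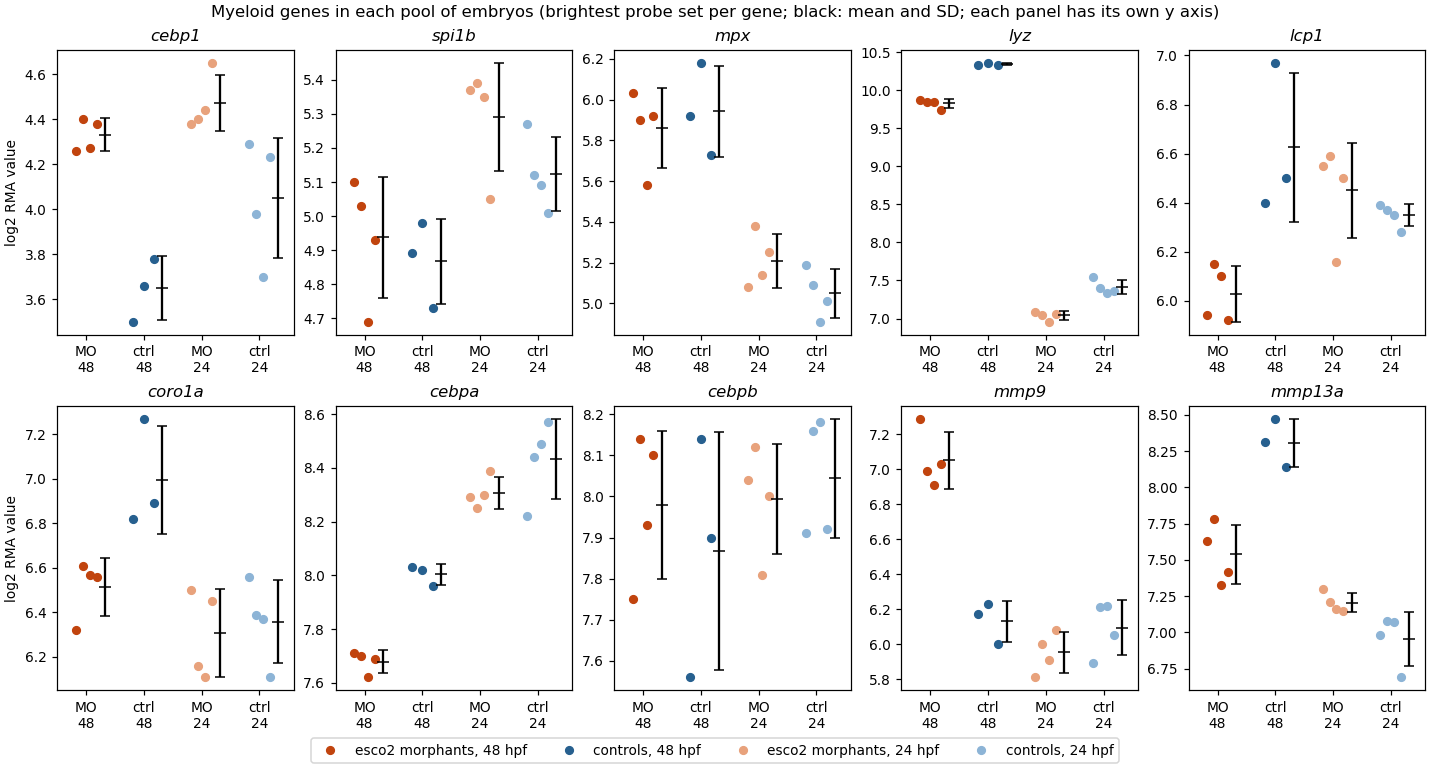
Log2 RMA values of the 10 myeloid genes (brightest probe set) in each pool of 50 embryos, by group on the x axis (MO, *esco2* morphants; ctrl, controls; 48 and 24 hpf), with the mean and SD in black. Panels have their own y axes. The 4 morphant pools at 48 hpf lie above all controls for *mmp9* and *cebp1* and below all controls for *lyz*, *lcp1*, *coro1a*, *cebpa* and *mmp13a*.

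Among the regulators, *spi1b* did not differ detectably between morphants and controls. At 48 hpf its log2 values were 5.10, 5.03, 4.69 and 4.93 in morphants and 4.89, 4.98 and 4.73 in controls, and the groups overlapped. The difference was 0.07 (95% interval -0.16 to 0.30, adjusted p = 0.71 from limma). At 24 hpf 3 of 4 morphant pools, at 5.35 to 5.39, lay above the controls at 5.01 to 5.27, but the remaining pool, replicate 4, was at 5.05 and the difference of 0.17 was not called (interval -0.04 to 0.38, adjusted p = 0.35 from limma). A second probe set of *spi1b* was dimmer and had differences of 0.01 at 48 hpf and 0.03 at 24 hpf, neither called.

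The *cebpa* transcript was slightly lower in morphants at 48 hpf. Its log2 values were 7.71, 7.70, 7.62 and 7.69 in morphants and 8.03, 8.02 and 7.96 in controls. All morphant pools lay below all controls, with a gap wider than the spread within either group. The difference was -0.33 (standard error 0.08, limma adjusted p = 0.0065). In the earlier pair the values were 8.29, 8.25, 8.30 and 8.39 in morphants and 8.22, 8.44, 8.49 and 8.57 in controls. Here the groups overlapped through control replicate 1, and the difference of -0.13 was not called (adjusted p = 0.34 from limma). The effect at 48 hpf minus that at 24 hpf was -0.20 (interval -0.43 to 0.03) and was not called (adjusted p = 0.34 from limma).

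*cebpb* is known as a gene of the acute response in myeloid cells and liver. Its log2 values spanned 7.75 to 8.14 in morphants and 7.56 to 8.14 in controls at 48 hpf, and 7.81 to 8.12 in morphants and 7.91 to 8.18 in controls at 24 hpf. The groups overlapped at both times, with differences of 0.11 (interval -0.16 to 0.38) and -0.05 (interval -0.30 to 0.20), neither called.

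The fourth factor, *cebp1*, encodes a C/EBP protein of the teleost myeloid lineage and is expressed in developing granulocytes. It has 2 probe sets, made from the same transcript. The brighter one, DrAffx.1.1.S1_x_at, had log2 values of 4.26, 4.40, 4.27 and 4.38 in morphants and 3.50, 3.66 and 3.78 in controls at 48 hpf. Every morphant pool lay above every control. The difference was 0.68, or 1.60-fold (standard error 0.12, limma adjusted p = 4.8e-04). At 24 hpf the values were 4.38, 4.40, 4.44 and 4.65 in morphants and 4.29, 3.98, 3.70 and 4.23 in controls. The groups again did not overlap, but the nearest pools, at 4.38 and 4.29, were close together and the controls were spread widely. The difference at 24 hpf was 0.42, or 1.34-fold (standard error 0.11, limma adjusted p = 0.021). This call at 24 hpf was lost without control replicate 2 (adjusted p = 0.063), control replicate 3 (0.075) or morphant replicate 4 (0.076).

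The dimmer probe set of *cebp1*, DrAffx.1.1.S1_at, did not show the rise at 48 hpf. Its log2 values were 3.11, 3.21, 2.93 and 3.16 in morphants and 2.80, 3.13 and 3.10 in controls at 48 hpf, with overlapping groups and a difference of 0.09 (interval -0.12 to 0.30, adjusted p = 0.56 from limma). The values at 24 hpf were 3.10, 3.31, 3.07 and 3.17 in morphants and 2.84 to 3.12 in controls. The groups overlapped and the difference of 0.20 was not called (interval 0.01 to 0.40, adjusted p = 0.19 from limma). Over the 15 arrays the 2 probe sets correlated at r = 0.60, and at r = 0.56 for deviations from the group means, a description of arrays that share their groups. All values of the dimmer probe set lie below the lowest Tag control median of 3.78. Those of the brighter one, 3.50 to 4.65, lie around these medians and reach below the lowest. The medians span 3.78 to 4.33, with that of control replicate 3 at 48 hpf apart at 4.63. An _x_at probe set holds probes that can bind other transcripts, by the manufacturer's naming. The part of other transcripts in the *cebp1* rise was not tested.

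Of the granule genes, *lyz* was lower in *esco2* morphants at both times, with little spread between pools. At 48 hpf its log2 values were 9.87, 9.84, 9.85 and 9.74 in morphants and 10.33, 10.36 and 10.33 in controls. At 24 hpf they were 7.09, 7.04, 6.96 and 7.06 in morphants and 7.54, 7.40, 7.34 and 7.36 in controls. At each time all morphant pools lay below all controls. At 48 hpf limma gave a difference of -0.51 (standard error 0.07, adjusted p = 5.4e-05), or 0.70 of the control level. At 24 hpf it gave -0.37 (standard error 0.06, adjusted p = 0.0012), or 0.775 of the control level. The effects at the 2 times differed by -0.15 (interval -0.35 to 0.05), which was not called (adjusted p = 0.44).

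For *mpx*, the peroxidase of neutrophils, 4 probe sets were read and they did not give a common answer. The brightest, here called A, had log2 values of 6.03, 5.90, 5.58 and 5.92 in morphants and 5.92, 6.18 and 5.73 in controls at 48 hpf, and the groups overlapped. Its difference was -0.08 at 48 hpf (interval -0.33 to 0.17, adjusted p = 0.68 from limma) and 0.16 at 24 hpf (interval -0.07 to 0.39, adjusted p = 0.43). Probe set B, of nearly the same mean value, had values of 6.29, 6.42, 6.57 and 6.44 in morphants and 6.89, 7.09 and 6.43 in controls at 48 hpf. Control replicate 4 overlapped the morphants there, and the difference of -0.37 was not called (interval -0.68 to -0.07, adjusted p = 0.075 from limma). At 24 hpf this probe set gave -0.26 (adjusted p = 0.28). Probe set D, one of a dim pair with values of 3.14 to 3.65, was called at 48 hpf, at 3.28, 3.2, 3.16 and 3.16 in morphants and 3.49, 3.48 and 3.44 in controls (-0.27, adjusted p = 0.0091 from limma). Its values lie below every array's Tag control median, as do those of the other dim probe set, C, which had a difference of 0.17 at 48 hpf (adjusted p = 0.22).

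**Figure D2:**
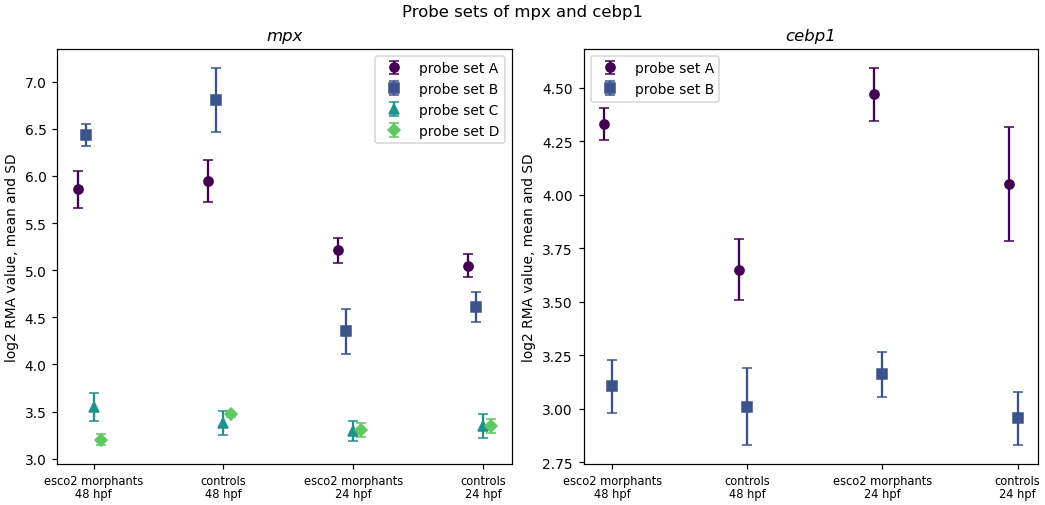
Group means and SD of the log2 RMA values of each probe set of *mpx* (left, A to D) and *cebp1* (right; A is the brighter, _x_at, probe set and B the dimmer), with 4 arrays per group and 3 for controls at 48 hpf. For *mpx* the brighter pair is higher at 48 than at 24 hpf and the dim pair stays between 3.2 and 3.55, and for *cebp1* only probe set A separates morphants from controls.

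Both leukocyte actin genes were called as lower in morphants at 48 hpf, *coro1a* only with control replicate 3 included and in only 1 of its probe sets. The *lcp1* transcript had log2 values of 5.94, 6.15, 6.10 and 5.92 in morphants and 6.4, 6.97 and 6.50 in controls. All morphant pools lay below all controls, and the highest control was replicate 3, the array unlike the rest. The difference was -0.60 (standard error 0.12, limma adjusted p = 0.0018), or 0.662 of the control level, and *lcp1* was called without that array too. At 24 hpf the values were 6.55, 6.59, 6.16 and 6.50 in morphants and 6.39, 6.37, 6.35 and 6.28 in controls. Here 3 of 4 morphant pools lay above all controls and 1 lay below them, and the difference was 0.10 (interval -0.14 to 0.34, adjusted p = 0.67 from limma).

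The *coro1a* transcript had log2 values of 6.32, 6.61, 6.57 and 6.56 in morphants and 6.82, 7.27 and 6.89 in controls at 48 hpf. The groups did not overlap, and control replicate 3 was again the highest. The difference was -0.48 (standard error 0.13, limma adjusted p = 0.012). Without control replicate 3 it was -0.34 and was not called (adjusted p = 0.060). Its values at 24 hpf spanned 6.11 to 6.50 in morphants and 6.11 to 6.56 in controls, with a difference of -0.05 (interval -0.31 to 0.20). A second probe set of *coro1a* had a difference of the other sign at 48 hpf, 0.14 (interval -0.10 to 0.38, adjusted p = 0.42 from limma), and correlated with the first at r = 0.02 over the 15 arrays.

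The protease genes moved in opposite directions at 48 hpf. The *mmp9* transcript had log2 values of 7.29, 6.99, 6.91 and 7.03 in morphants and 6.17, 6.23 and 5.999 in controls. The lowest morphant pool lay well above the highest control. The difference was 0.92, or 1.89-fold (standard error 0.10, limma adjusted p = 9.7e-06). The values at 24 hpf were 5.81, 6.0, 5.91 and 6.08 in morphants and 5.89, 6.21, 6.22 and 6.05 in controls. The groups overlapped, and the difference of -0.14 was not called (interval -0.35 to 0.06, adjusted p = 0.43 from limma).

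*mmp13a*, a collagenase gene, had log2 values of 7.63, 7.78, 7.33 and 7.42 in morphants and 8.31, 8.47 and 8.14 in controls at 48 hpf. All morphant pools lay below all controls. The difference was -0.77, or 0.587 of the control level (standard error 0.12, limma adjusted p = 1.5e-04). At 24 hpf the order was the other way round, with 7.30, 7.21, 7.16 and 7.15 in morphants and 6.98, 7.08, 7.07 and 6.69 in controls. All morphant pools then lay above all controls, but the difference of 0.25 was not called (interval 0.03 to 0.48, adjusted p = 0.17 from limma).

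**Figure D3:**
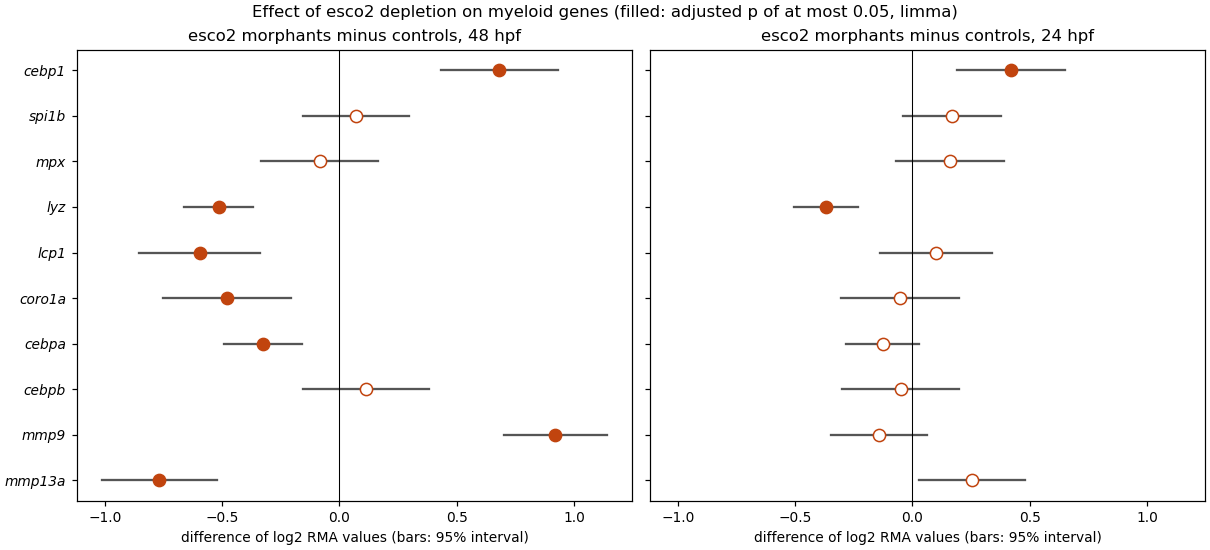
Differences of log2 RMA values, *esco2* morphants minus controls, at 48 hpf (left) and 24 hpf (right) for the 10 genes, with 95% intervals from limma. Filled points have an adjusted p of at most 0.05. At 48 hpf *mmp9* is highest at 0.92 and *mmp13a* lowest at -0.77, and at 24 hpf only *cebp1* and *lyz* are filled.

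Every pool of one group lay beyond every pool of the other for 7 of the 10 genes at 48 hpf, the same 7 that were called, where 25.9% of all probe sets were separated in this way. At 24 hpf this held for 3 genes, *cebp1*, *lyz* and *mmp13a*, where the share among all probe sets was 21.0%. Without adjustment, limma gave a p under 0.05 for 7 genes at 48 hpf and 3 at 24 hpf. The share of all probe sets was not computed for unadjusted p, here or for the lists below.

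Whether the effect of the morpholino differed between the times was tested directly, as the effect at 48 hpf minus that at 24 hpf. It differed for 3 of 10 genes, where 6.28% of all probe sets were called. For *mmp9* the effect was 1.06 higher at 48 hpf (standard error 0.14, limma adjusted p = 3.4e-04). For *mmp13a* it was lower by 1.02 (-1.02, standard error 0.16, adjusted p = 0.0011), and for *lcp1* the difference of effects was -0.70 (standard error 0.17, adjusted p = 0.018). For *coro1a* it was -0.43 (interval -0.80 to -0.06) and not called (adjusted p = 0.18). For *cebp1* and *lyz*, called at both times, it was 0.26 (interval -0.08 to 0.60) and -0.15, neither called. The dimmer probe set of *cebp1*, called at neither time, had -0.11 (adjusted p = 0.72 from limma).

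The same arrays show how the genes changed between the stages, and these comparisons share their arrays with those above. In morphants 7 of the 10 genes were called between 48 and 24 hpf, 4 raised and 3 lowered, where 42.6% of all probe sets were called. In controls 6 were called, 4 raised and 2 lowered, where 45.9% of all probe sets were called. The 2 granule genes rose in both. The *lyz* transcript was 2.78 higher at 48 than at 24 hpf in morphants (6.89-fold, adjusted p = 4.9e-16 from limma) and 2.93 higher in controls (7.63-fold, adjusted p = 1.0e-15). Its lowest value at 48 hpf, 9.74, was above its highest at 24 hpf, 7.54. The brightest probe set of *mpx* was 0.65 higher in morphants (adjusted p = 9.4e-05) and 0.90 higher in controls (5.8e-06). The other bright probe set of *mpx* was 2.08 higher in morphants and 2.2 higher in controls, so that the size of the *mpx* change depends on the probe set.

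Both protease genes changed by different amounts in morphants and controls, as the test of the difference above shows. The *mmp9* transcript was 1.099 higher at 48 than at 24 hpf in morphants (2.14-fold, adjusted p = 4.8e-08 from limma) and 0.04 higher in controls (interval -0.18 to 0.26, adjusted p = 0.81). The *mmp13a* transcript was 0.33 higher in morphants (adjusted p = 0.018) and 1.35 higher in controls (2.55-fold, adjusted p = 3.0e-08). The call in morphants was lost without morphant replicate 1 (0.30, adjusted p = 0.051) or replicate 2 (0.25, adjusted p = 0.077) of 48 hpf. The *lcp1* transcript was lower by 0.42 in morphants (-0.42, adjusted p = 0.0057) and had a difference of 0.28 in controls (interval 0.02 to 0.54, adjusted p = 0.075). *coro1a* had a difference of 0.21 in morphants (interval -0.04 to 0.46, adjusted p = 0.18) and was 0.63 higher in controls (adjusted p = 5.3e-04).

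The regulators went down with stage or did not pass the test. *cebpa* was lower at 48 than at 24 hpf in morphants (-0.63, adjusted p = 1.7e-06 from limma) and in controls (-0.43, adjusted p = 2.2e-04). *spi1b* was lower in morphants (-0.35, adjusted p = 0.0074), and in controls its difference was -0.26 (adjusted p = 0.060). *cebp1* had a difference of -0.14 in morphants (interval -0.37 to 0.09) and was lower in controls (-0.40, adjusted p = 0.0099), a call lost without control replicate 1 of 48 hpf (-0.33, adjusted p = 0.058). Its dimmer probe set had differences of -0.056 in morphants and 0.055 in controls, neither called (adjusted p = 0.68 for both in limma). *cebpb* had differences of -0.02 in morphants (interval -0.26 to 0.23) and -0.18 in controls (interval -0.45 to 0.09). Without control replicate 3 of 48 hpf, 8 genes were called in controls, *spi1b* and *cebpb* in addition, both lower. With all arrays 45.9% of all probe sets were called in this comparison, and the share without this array is not given here.

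**Figure D4:**
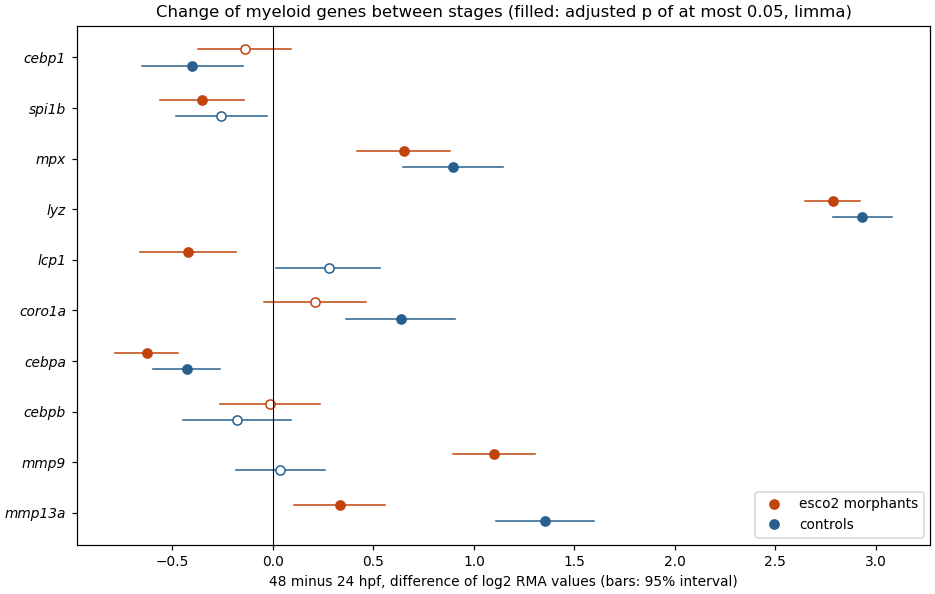
Differences of log2 RMA values, 48 minus 24 hpf, in *esco2* morphants (upper point of each pair) and controls (lower point), with 95% intervals from limma. Filled points have an adjusted p of at most 0.05. *lyz* has the largest change in both groups, and for *mmp9*, *mmp13a* and *lcp1* the intervals of morphants and controls do not overlap.

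As a description with no test, members were compared over the 15 arrays by Pearson's r, once as measured and once as deviations from the group means. As measured, *mpx* and *lyz* correlated at 0.91 and *mmp13a* with *coro1a* at 0.84, and these values carry the differences between the groups. Within groups *mpx* and *lyz* correlated at 0.28, while *lcp1* correlated at 0.71 with *coro1a* and at 0.72 with *cebpb*. These values are for the brightest probe sets. Probe set B of *mpx* correlated with *lyz* at 0.98 as measured and -0.10 within groups. The second *coro1a* probe set correlated with *mmp13a* at 0.03 as measured and with *lcp1* at 0.31 within groups. Control replicate 3 at 48 hpf is high for *lcp1*, *coro1a* and *cebpb* at once.

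Among 8167 genes compared as measured, the pattern most like that of *lyz* was that of *slc1a2b*, a glutamate transporter gene (r = 0.998), followed by *crygmxl2*, *snap25b*, *hbae3* and *slc25a4* (r = 0.995 to 0.997). For *mpx* it was *cpa5*, a carboxypeptidase gene (r = 0.977, and 0.957 within groups), followed by *col11a2*, *tmem198ab*, *ponzr1* and *lnx2a*. For *mmp9* it was the complement gene *c6.2* (r = 0.943), followed by *clu*, *bcl6ab*, *rasl11a* and *dmd*. For *cebp1* it was *lmo7b* (r = 0.901), followed by *trim55a*, *trpt1*, *crabp2a* and *isg20*. The arrays of a group share its stage and injection, so each r carries the distance between groups. Within groups, r was 0.723 to 0.957 for the genes named for *mpx* and -0.271 to 0.508 for those of *lyz*. It was 0.197 to 0.401 for those of *mmp9* and 0.039 to 0.639 for those of *cebp1*.

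Other genes of myeloid cells were read from lists, of which many members are also expressed outside blood. Of 25 measured genes listed as transcription factors of myeloid cells and their precursors, 3 were raised and 5 lowered at 48 hpf (median -0.05). Of all probe sets 12.8% were raised and 9.79% lowered at that time. At 24 hpf 1 gene was raised and 2 lowered (median 0.05), where 4.43% and 5.33% of all probe sets were. Some listed genes, such as *notch1a*, *jak2a* and *cebpz*, do not encode transcription factors. When control replicate 3 at 48 hpf was left out, the list held 4 raised and 5 lowered genes (median 0.04). The calls of *elf1* and *notch1a* were then lost and those of *egr1*, *nfe2* and *fli1a* gained, of which *elf1*, *nfe2* and *fli1a* were named after their values were seen. The precursor factor gene *gata2a* had a difference of -0.57 at 48 hpf (adjusted p = 4.4e-04 from limma), *meis1b*, a homeobox gene, -0.43 (5.4e-04), and *cebpz*, which despite its name encodes a nucleolar protein, 0.73 (4.7e-04). At 24 hpf *notch1a*, which encodes a receptor, had -0.55 (0.0032), *meis1b* -0.25 (0.032) and the immediate early gene *egr1* 0.54 (0.030). The genes *cebpd*, *runx1*, *myb* and *gata1a* were not called at either time, with differences of -0.17 to 0.33. All values of *runx1* lie below the lowest Tag control median of 3.78.

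Of 21 genes of the leukocyte cytoskeleton, phagosome and oxidase, 4 were raised at 48 hpf and 0 lowered (median 0.10), against 12.8% and 9.79% of all probe sets. Without adjustment 5 and 1 had a p under 0.05 in limma, for which no share of all probe sets was computed. The members *lcp1* and *coro1a* are not on the list. The Arp2/3 subunit gene *arpc5b* was 0.73 higher in morphants at 48 hpf (adjusted p = 4.4e-06) and 0.67 higher at 24 hpf (6.6e-06), and *vamp8*, a vesicle fusion gene, was 0.80 higher at 48 hpf (1.1e-04). At 24 hpf 3 were raised and 1, *coro1ca*, lowered (-0.26, limma adjusted p = 0.043), against 4.43% and 5.33% of all probe sets. The gene *ptprc*, which encodes the leukocyte antigen CD45, had differences of 0.08 and -0.11 and was not called, at log2 values near the Tag control medians. Another gene of leukocytes, *laptm5*, had differences of 0.10 at 48 hpf and 0.29 at 24 hpf. Neither was called, though at 24 hpf all its morphant pools lay above all controls. Without control replicate 3 at 48 hpf, 3 were raised and 1 lowered; *arpc5a* lost its call and *coro1b* gained one, both named after their values were seen.

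Of 23 macrophage and lysosome genes, 3 were raised and 3 lowered at 48 hpf (median 0.08), against 12.8% and 9.79% of all probe sets. At 24 hpf 1 was raised and 1 lowered (median 0.03), against 4.43% and 5.33%. *cd68*, a lysosomal glycoprotein gene of macrophages, was lower at both times (-0.35, adjusted p = 0.0085 at 48 hpf, and -0.49, adjusted p = 8.4e-04 at 24 hpf, limma). The cathepsin S genes *ctss2.1* and *ctss2.2* went opposite ways at 48 hpf, at 0.74 (4.0e-04) and -0.40 (0.0013). *lamp1*, of lysosome membranes, was 0.38 higher at 24 hpf (0.021). *csf1ra*, a receptor gene of macrophages that is also active in yellow pigment cells, had differences of 0.12 and 0.13 and was not called. Its log2 values were near the Tag control medians. The macrophage marker *mpeg1.1*, the cytokine *il1b* and *spi1a* were not analysed here.

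Of 9 other granule and neutrophil genes, 4 were raised and 2 lowered at 48 hpf, against 12.8% and 9.79% of all probe sets, but the median of the 9 was -0.20. The chemokine receptor gene *cxcr4b*, which is also active in migrating neural and mesodermal cells, had log2 values of 5.34 ± 0.09 (SD, n = 4) in morphants and 6.32 ± 0.07 (SD, n = 3) in controls at 48 hpf (difference -0.99, adjusted p = 1.8e-06 from limma). At 24 hpf its difference was -0.24 (adjusted p = 0.11). The raised genes were broadly expressed ones, such as the annexin genes *anxa2a* (0.65, adjusted p = 1.5e-05) and *anxa1a* (0.41, 0.0021). At 24 hpf *anxa1a* (0.32, 0.014), *anxa2a* (0.26, 0.027) and *s100a10b* (0.27, 0.032) were raised, against 4.43% of all probe sets. Without control replicate 3 at 48 hpf, 3 were raised and 1 lowered; *padi2* and *nccrp1* lost their calls, both named after their values were seen.

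Of 43 listed genes of cytokines and the acute response 15 were measured, and *tnfa*, *tnfb*, *cxcl8a* and *il10* were not among them. Of the 15, 5 were raised at 48 hpf and 0 lowered (median 0.21, and 9 and 1 at an unadjusted limma p under 0.05). At 24 hpf 2 were raised and 0 lowered (median 0.03, and 2 and 2 unadjusted). Of all probe sets 12.8% were raised and 9.79% lowered at 48 hpf, and 4.43% and 5.33% at 24 hpf. The 5 include the chemokine genes *cxcl12a* and *cxcl12b*. The acute-phase genes *saa* (0.07), *crp* (0.05) and *c3a.1* (0.33), named after their values were seen, were not called at 48 hpf. For *c3a.1* all morphant pools then lay above all controls, while for *saa* and *crp* the groups overlapped. The log2 values of *saa* at 48 hpf, 3.44 to 3.93, were near the lowest Tag control median. The counts without control replicate 3 at 48 hpf were again 5 and 0, with the call of *socs3a* lost (0.71, adjusted p = 0.075) and that of *ptgs2a* gained (0.54, 0.023). The chemokine gene *cxcl12a*, whose product is the ligand of Cxcr4, was 0.80 higher in morphants at 48 hpf (adjusted p = 3.9e-05 from limma), the cytokine signaling genes *socs3b* 0.77 (6.8e-04) and *stat3* 0.50 (0.0016). At 24 hpf *socs3a* was 1.09 higher (0.0050) and *ptgs2a*, a prostaglandin synthase gene, 0.51 (0.046). Of 9 other matrix metalloproteinases and their inhibitors, 2 were raised and 1 lowered at 48 hpf, and 1 was raised and 1 lowered at 24 hpf, against the same shares of all probe sets. *mmp2* was higher in morphants at both times, by 1.24 (4.5e-08) and 1.57 (3.1e-10). *mmp11b* was lower at 48 hpf (-1.15, 5.5e-07), the inhibitor gene *timp2b* was 0.78 higher (3.9e-05), and at 24 hpf *timp2a* was lower (-0.30, 0.011).

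**Figure D5:**
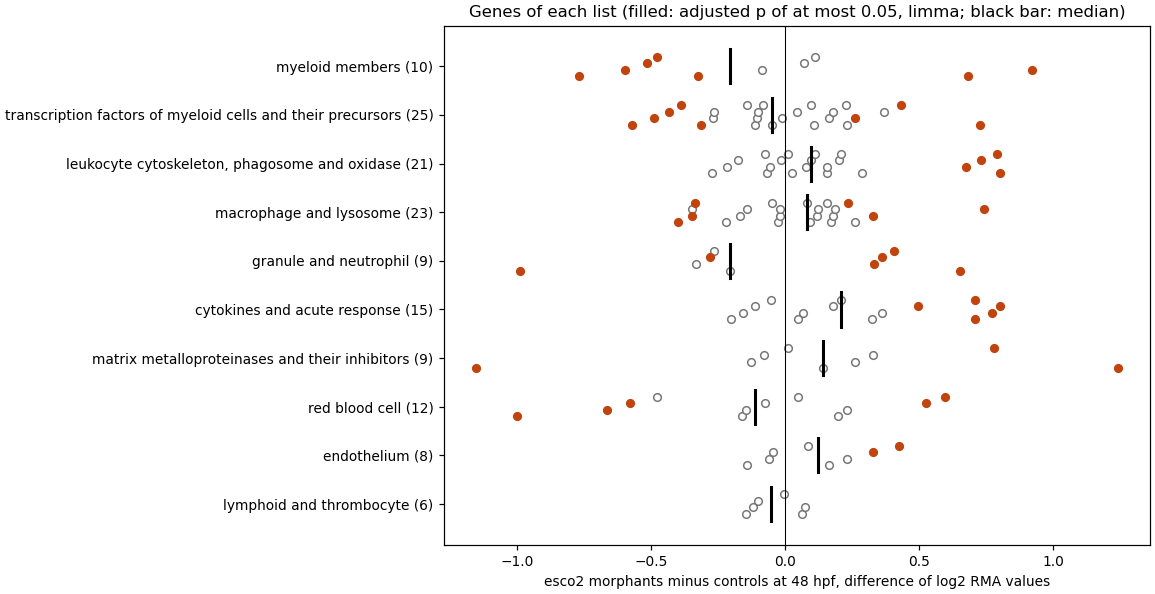
Differences of log2 RMA values, *esco2* morphants minus controls at 48 hpf, for the 10 members and the measured genes of 9 lists (number in parentheses). Filled points have an adjusted p of at most 0.05 in limma, and black bars are medians. The members' median is -0.20. The lists hold both raised and lowered genes except those of the leukocyte cytoskeleton, of cytokines and acute response, and of endothelium, which hold raised calls only. Without control replicate 3 the leukocyte list holds *coro1b* and the endothelium list *fli1a* as lowered. The lymphoid and thrombocyte genes hold 0 calls, at mean levels within the range of the Tag control medians.

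Markers of other blood and vessel cells were read in the same way, against the shares of all probe sets given above. Of 12 red blood cell genes 2 were raised and 3 lowered at 48 hpf, and 1, *slc4a1a*, was lowered at 24 hpf (-0.63, adjusted p = 0.0070 from limma). The heme synthesis gene *alas2* had -0.999 (4.3e-06) and the embryonic globin gene *hbbe2* -0.58 (1.4e-04) at 48 hpf, while the erythroid factor gene *klf1* had 0.53 (0.0013). The mean log2 level of the list was 7.88 to 8.13 in morphants and 8.10 to 8.24 in controls at 48 hpf, with overlap, and 7.32 to 7.46 in morphants and 7.32 to 7.58 in controls at 24 hpf. Leaving out control replicate 3 at 48 hpf, 3 were raised and 4 lowered (median 0.00 in place of -0.11), with *hbbe3* (0.28, 0.024) and *cahz* (-0.58, 0.035) called in addition, both named after their values were seen. Of 8 endothelial genes, 2 were raised at 48 hpf, *mrc1a* (0.33, 0.022) and *kdrl* (0.42, 0.032), and *flt4* at 24 hpf (0.36, 0.020), with mean levels of 6.35 to 6.44 in morphants and 6.27 to 6.28 in controls at 48 hpf, and 6.12 to 6.25 in morphants and 6.07 to 6.12 in controls at 24 hpf. When the same array was left out, *kdrl* was not called (0.17, 0.16), *flt4* was (0.30, 0.020), and *fli1a*, named after its values were seen, was called as lowered (-0.25, 0.046). Of 6 lymphoid and thrombocyte genes 0 were called in limma at either time, nor had any an unadjusted p under 0.05, and their mean levels overlapped between groups at both times. These mean levels, 3.92 to 4.2, lie within the range of the Tag control medians, 3.78 to 4.63. The list can therefore show only part of a change, and its lack of calls does not show that these genes were unchanged. The part of these cell types in the members' differences was not tested.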

How the data were processed

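Total RNA of pools of 50 whole embryos was labelled and hybridized to 15 arrays. The deposited values are log2 values that the authors made with RMA (background correction, quantile normalization and summary of probes) after an AffyQCReport check; tool versions and a genome build are not given in the sources used here. They were used as deposited. Of 15617 probe sets 115 Affymetrix controls were left out. By the platform's annotation 10795 of the others carry 1 symbol, 135 several and 4572 none.

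Tables were made with Python 3.11.15 and pandas 2.3.3, tests with R 4.3.3 and limma 3.58.1 (lmFit with a mean per group, eBayes), and figures with matplotlib 3.10.9. The code was tested on simulated data. Every p-value is two-sided and from limma. Arrays have no counting depth, and their number limits the precision. The labels call the arrays biological replicates, each 1 pool. Replicate numbers were not taken to pair groups, because the labels do not say that a number is shared between groups. Deviations of same-numbered arrays correlated at -0.451 to -0.076 at 48 hpf and 0.021 to 0.198 at 24 hpf, so that a pairing at 24 hpf is not excluded. Quantile normalization makes every difference relative to the whole array.

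The members, the 9 gene lists and the tests were chosen with earlier results of these data known. Named were every member and *cebp1* probe set, up to 3 genes of each other list with the smallest adjusted p at each time among those at most 0.05, and fixed markers (*il1b*, *mpeg1.1*, *csf1ra*, *ptprc*, *spi1a*, *cebpd*, *runx1*, *myb*, *gata1a*). One gene that this rule names is not reported here. The 5 genes most like *cebp1*, *mpx*, *lyz* and *mmp9* were taken by Pearson's r. Alternatives were the replicate block, each comparison fitted alone, dim probe sets left out, cyclic loess, eBayes with trend and robust options, array weights, averaging all probe sets of a gene, a 2-fold minimum as in the study's methods, and leaving out each array.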

Additional observations from a re-analysis of the deposited data

Results flagged for a closer look

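Of the members, *mmp9*, *mmp13a* and *lcp1* responded to the morpholino differently at the 2 times, by limma's test of the difference of effects. For *mmp9* the effect was 1.06 higher at 48 than at 24 hpf, for *mmp13a* it was -1.02, and for *lcp1* it was -0.70. For *mmp13a* the separation of the pools also changed sides, with all morphant pools below all controls at 48 hpf and above them at 24 hpf, although the difference at 24 hpf was not called.

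In 3 of the 48 groups of 4 arrays examined, 1 array lay far from the others by Dixon's ratio (the gap to its neighbour over the group's range), which chance gives in about 1 of 20 groups. They were morphant replicate 4 at 24 hpf, lowest for the brightest *spi1b* probe set (ratio 0.89), control replicate 4 at 24 hpf, lowest for a dim *mpx* probe set (0.88), and control replicate 3 at 24 hpf, lowest for the second *coro1a* probe set (0.88).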

How the results depend on the processing

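Under the alternatives 844 differences were recomputed, for each gene's brightest probe set and the dimmer one of *cebp1*. The other member probe sets, such as D of *mpx*, were not recomputed singly. Of the 844 differences 822 kept their side of the threshold, 15 lost a call and 7 gained one. The sign changed for 22, and 0 of these were called under either setting in limma. With the replicate block the counts of called genes were 7 at 48 hpf and 2 at 24 hpf, 3 for the difference of effects, 7 between stages in morphants and 6 in controls, the same genes as without it. Of all 15502 probe sets 3176 were then called at 48 hpf and 1249 at 24 hpf. Each array correlated best with its own number in 0 of 6 cases at 48 hpf and 6 of 8 at 24 hpf. With array weights, whose estimation stopped before it converged, 3 genes were called at 48 hpf (*lyz*, *lcp1* and *mmp9*); *cebp1* (0.60, adjusted p = 0.086), *mmp13a* (-0.58, 0.056), *coro1a* (-0.42, 0.20) and *cebpa* (-0.28, 0.20) were not, and the difference of effects of *lcp1* was -0.63 (0.060). The numbers of all probe sets called with array weights, or with single arrays left out, are not given here. With dim probe sets left out (mean below the median of all), 7 genes were measured. Of these, 6 were called at 48 hpf and 1, *lyz*, at 24 hpf. Among all probe sets kept, 2942 were called at 48 hpf and 1511 at 24 hpf. With a 2-fold minimum 0 were called at 48 hpf, 0 at 24 hpf, 2 between stages in morphants (*lyz* and *mmp9*) and 2 in controls (*lyz* and *mmp13a*). Of all 15502 probe sets 141, 75, 831 and 1153 were called in these comparisons with this minimum. Leaving out each array gave 6 to 7 called genes at 48 hpf, 1 to 2 at 24 hpf, 3 for the difference of effects, 6 to 7 between stages in morphants and 6 to 8 in controls. After averaging all probe sets of a gene *coro1a* at 48 hpf was not called (-0.17, 0.24), nor *cebp1* between stages in controls (-0.17, 0.17). The causes were not tested. Probe sets near the Tag control level, such as both of *cebp1* and the dim pair of *mpx*, can show only part of a change.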
